A study of Mus musculus with 28 samples.

Results

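Chemokines are small secreted proteins that guide leukocytes, and the macrophage growth factors Csf1 and Il34 keep macrophages alive and dividing. The 9 genes described here are 7 chemokines (Ccl2, Ccl28, Cxcl1, Cxcl10, Cxcl12, Cxcl16 and Cx3cl1) and these 2 growth factors. They were taken by gene symbol from a table of 14845 genes, and all 9 were found there and passed the filter on low values that left 13495 genes for testing. The table holds bulk RNA-seq of kidneys from male mice, in 28 libraries. Each library was treated as 1 animal, although the labels are silent on that.

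The groups were uninephrectomized db/db mice (Unx, which have lost 1 kidney to surgery) at 35 weeks (n = 5), intact db/m mice at 35 weeks (n = 6), db/db Unx mice at 26 weeks (n = 12) and intact db/m mice at 26 weeks (n = 5). The db/db mouse lacks a working long form of the leptin receptor and becomes obese and diabetic, and the submitters use it, after uninephrectomy, to model advanced kidney disease of diabetes. All db/db mice were uninephrectomized and all db/m mice were intact, so an effect of genotype and an effect of surgery cannot be told apart. If libraries share an animal, the p-values measure a spread that may be technical.

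Ccl2 binds the receptor Ccr2 and draws monocytes from the blood, while Cx3cl1, made as a membrane-bound protein, binds Cx3cr1 on monocytes and macrophages. Cxcl1 draws neutrophils through Cxcr2. Cxcl10 is induced by interferons and acts on Cxcr3 of activated T and NK cells, and Cxcl16, also made in a membrane-bound form, binds Cxcr6. Cxcl12 binds Cxcr4 and is made steadily by stromal and other cells of many tissues, and Ccl28 is an epithelial chemokine of mucosal surfaces with the receptors Ccr10 and Ccr3. Csf1 and Il34 share the receptor Csf1r, and injured tubule cells are a known source of Ccl2, Csf1 and Il34 in the kidney.

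The promoters of Cxcl10, Cxcl1 and Csf1, whose levels were higher in db/db Unx kidneys at 35 weeks, are shown because each held a match to the NF-kB consensus, a site bound by a transcription factor of inflammatory signalling. The promoter of Ccl28, whose level was lower, is shown beside them and held none. Each line gives the 250 bases before the RefSeq start on the gene's own strand, 5′ to 3′, from the RefSeq promoter table of GRCm38.p6. Capitals mark NF-kB consensus matches and, in Cxcl10 only, also 1 match to the core of the interferon-stimulated response element (ISRE). Their positions are chr5:92348890-92349139 (minus strand) for Cxcl10, chr5:90890995-90891244 (plus strand) for Cxcl1, chr3:107760470-107760719 (minus strand) for Csf1 and chr13:119623569-119623818 (plus strand) for Ccl28.
Cxcl10: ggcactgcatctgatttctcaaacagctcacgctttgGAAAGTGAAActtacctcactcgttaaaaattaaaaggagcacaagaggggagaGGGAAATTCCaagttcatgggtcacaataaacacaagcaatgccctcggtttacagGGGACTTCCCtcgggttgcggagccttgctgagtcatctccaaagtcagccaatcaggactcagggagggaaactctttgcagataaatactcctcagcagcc
Cxcl1: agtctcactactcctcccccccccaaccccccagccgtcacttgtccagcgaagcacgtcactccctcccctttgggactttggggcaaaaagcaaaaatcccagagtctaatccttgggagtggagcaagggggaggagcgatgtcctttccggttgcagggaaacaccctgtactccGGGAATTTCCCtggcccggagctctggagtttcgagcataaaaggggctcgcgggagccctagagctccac
Csf1: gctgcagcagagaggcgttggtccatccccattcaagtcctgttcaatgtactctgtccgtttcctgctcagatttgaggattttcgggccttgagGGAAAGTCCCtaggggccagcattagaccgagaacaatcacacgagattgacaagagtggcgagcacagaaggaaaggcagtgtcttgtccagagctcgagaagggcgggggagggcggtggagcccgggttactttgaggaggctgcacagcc
Ccl28: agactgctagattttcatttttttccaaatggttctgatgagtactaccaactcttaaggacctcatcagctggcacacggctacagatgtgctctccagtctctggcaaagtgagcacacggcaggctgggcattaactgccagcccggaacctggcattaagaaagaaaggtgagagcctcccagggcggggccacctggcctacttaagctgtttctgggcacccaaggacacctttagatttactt

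Counting back from the start, the first bases of the NF-kB matches lay at -159 and -103 in Cxcl10, at -71 and -70 in Cxcl1, where the matches overlap on opposite strands, and at -154 in Csf1. The ISRE core (GAAANNGAAA) lay at -213 in Cxcl10. Both strands were searched. Of 32851 promoter windows of the same length, 3.90% held the NF-kB consensus and 2.98% the ISRE core. Cxcl10 also held AP-1 (TGANTCA, 6.75% of all windows) at -74 and a CCAAT box (33.8%) at -54, and Cx3cl1 held TATAAA (12.4%) at -6. Of the 9 genes, 6 have an entry in the promoter table, and Cxcl12 and Cx3cl1 held no NF-kB match. Ccl2, Cxcl16 and Il34 have no entry there. A match describes the letters of the window and does not show that a factor binds.

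The deposited values are normalized read numbers (normalized values below). A value of 1 stood for 22.4 to 33.9 estimated reads, and the libraries held 21.8 M to 30.8 M estimated reads (M, 1e+06 reads). Kidney marker genes were present in every group: the summed value of 7 proximal tubule markers was 9472 to 10763 in db/db Unx at 35 weeks, 14492 to 16191 in db/m at 35 weeks, 9966 to 11840 in 26-week db/db Unx and 14424 to 16709 in 26-week db/m. On the second principal component of all genes, the db/db Unx libraries of 35 weeks with replicate numbers 3, 5 and 6 lay apart from all other libraries. In bulk tissue, fewer cells of a type and less RNA per cell cannot be told apart.

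At 35 weeks, 5 of the 9 genes were higher in db/db Unx than in db/m kidneys (Ccl2, Cxcl1, Cxcl10, Cxcl16 and Csf1) and 2 were lower (Ccl28 and Il34), by limma with an adjusted p below 0.05. Among all genes tested, 32.3% were called in that comparison, 15.9% as higher and 16.4% as lower. The median log2 fold change was 1.15 over the 9 genes and 0.01 over all genes. The 9 genes were chosen with earlier results of these data known, so their counts and medians, here and below, are a description. At 26 weeks, 1 was higher (Cxcl10) and 3 were lower (Ccl28, Il34 and Cx3cl1), where 34.9% of all genes were called, 17.2% as higher and 17.7% as lower. There the median was 0.05 over the 9 genes and 0.02 over all genes. Groups that did not overlap were found for 5 genes at 35 weeks (Ccl2, Cxcl10 and Cxcl16 higher, Ccl28 and Il34 lower), where 18.1% of all genes had such groups, 7.84% higher and 10.3% lower. They were found for 2 genes at 26 weeks (Ccl28 and Il34, both lower), where 12.8% of all genes had them, 5.11% higher and 7.68% lower.

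The 35-week calls were also run without the db/db Unx replicates 3, 5 and 6, a setting chosen after seeing the data that leaves 2 db/db Unx libraries. Without them Ccl2, Ccl28, Cxcl10, Cxcl16 and Il34 were still called, while Cxcl1 (log2 fold change 0.47, adjusted p 0.401) and Csf1 (0.54, adjusted p 0.155) were not.

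**Figure D1:**
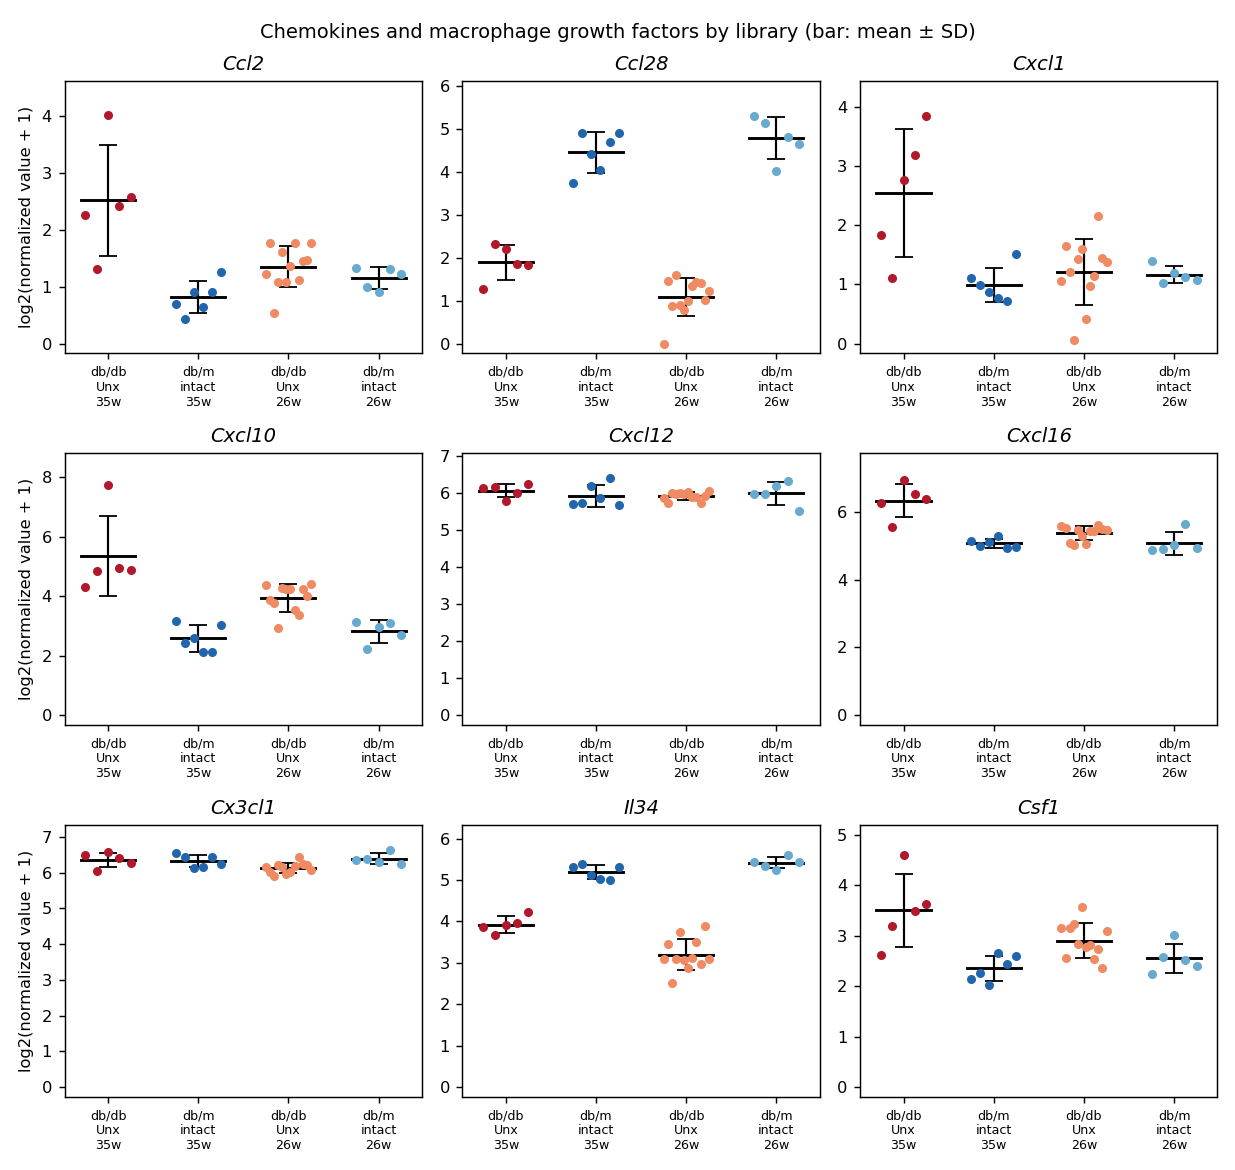
Each panel plots 1 gene as log2(normalized value + 1) on the vertical axis, with 1 point per library in the groups db/db Unx 35w (n = 5), db/m intact 35w (n = 6), db/db Unx 26w (n = 12) and db/m intact 26w (n = 5) and bars for the mean ± SD. Ccl28 and Il34 lie lower in every db/db Unx library than in every db/m library of the same age, and Ccl2, Cxcl10 and Cxcl16 separate the groups at 35 weeks.

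Ccl2 (ENSMUSG00000035385, chromosome 11, 82035571 to 82037453, GRCm38) was high in the older diseased kidneys. Its normalized values in the 5 db/db Unx libraries of 35 weeks, replicates 1, 2, 3, 5 and 6, were 3.78, 1.47, 15.1, 4.33 and 4.92, against a lowest of 0.355, a median of 0.748 and a highest of 1.39 in db/m at 35 weeks. All 5 lay above the highest db/m library, by a narrow margin in replicate 2 and by the widest in replicate 3. The mean was 5.92 ± 5.30 (SD, n = 5) in db/db Unx and 0.781 ± 0.359 (SD, n = 6) in db/m, a log2 fold change of 1.70 ± 0.28 (SE, adjusted p 6.26e-06). With those 3 libraries left out it was 0.97 (adjusted p 0.0170).

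At 26 weeks the Ccl2 values of db/db Unx kidneys had a lowest of 0.453, a median of 1.65 and a highest of 2.41, against 1.49, 0.996, 0.866, 1.47 and 1.32 in the 5 db/m libraries. The groups overlapped, and the log2 fold change of 0.20 ± 0.24 was not called (adjusted p 0.552). These low values rest on few reads, a median of 39.5 estimated reads in db/db Unx and 32 in db/m. Log2(value + 1) understates fold changes of genes at such levels: the ratio of the 35-week means was 7.58, and 4.64 without db/db Unx replicate 3.

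Cx3cl1 (ENSMUSG00000031778, chromosome 8, 94772009 to 94782427) kept a high level in all groups. Its mean was 81.9 ± 11.2 in db/db Unx at 35 weeks, 79.7 ± 9.30 in db/m at 35 weeks, 69.6 ± 7.29 in 26-week db/db Unx and 83.1 ± 9.35 in 26-week db/m (SD, n = 5, 6, 12 and 5). At 35 weeks the groups overlapped and no difference was called (0.04 ± 0.09, adjusted p 0.801). At 26 weeks it fell by 0.25 on the log2 scale (SE 0.08, adjusted p 0.0126), and 11 of 12 db/db Unx libraries lay below the lowest db/m library. Without db/m replicate 4, the highest db/m library at 98.9, the 26-week change was -0.19 and no longer called (adjusted p 0.0845).

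Cxcl1 (ENSMUSG00000029380, chromosome 5, 90891241 to 90893115) differed widely between the older diseased kidneys. The db/db Unx libraries of 35 weeks had 2.56, 1.15, 5.77, 8.07 and 13.4, against a lowest of 0.643, a median of 0.903 and a highest of 1.85 in db/m. In 4 of 5 db/db Unx libraries the value was above all db/m libraries, and replicate 2 lay among them. The log2 fold change was 1.55 ± 0.33 (adjusted p 0.000405) and the ratio of the means 6.02. At 26 weeks the means were 1.46 ± 0.888 in db/db Unx and 1.25 ± 0.229 in db/m (SD, n = 12 and 5), with overlapping groups and a log2 difference of 0.05 ± 0.29 (adjusted p 0.920) whose sign turned with other settings.

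Cxcl10 (ENSMUSG00000034855, chromosome 5, 92346638 to 92348889) had the highest log2 fold change of the 9 genes at 35 weeks with all libraries. The db/db Unx libraries had 19.0, 27.8, 212, 30.1 and 28.5, against a lowest of 3.35, a median of 4.72 and a highest of 8.09 in db/m. The groups did not overlap, and replicate 3 stood far above the other db/db Unx libraries, which lay close together. The log2 fold change was 2.77 ± 0.41 (adjusted p 7.24e-06), 2.17 (adjusted p 4.03e-08) without replicate 3 and 2.00 (adjusted p 3.31e-05) without replicates 3, 5 and 6. The ratio of the means was 12.1. Without replicate 3 it was 5.03, below the 6.12 of Cxcl1 in the same setting.

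At 26 weeks Cxcl10 values of db/db Unx kidneys had a lowest of 6.71, a median of 16.5 and a highest of 20.4, against 7.77, 3.64, 6.83, 7.63 and 5.44 in db/m. Of 12 db/db Unx libraries, 11 lay above the highest db/m library. The log2 fold change was 1.12 ± 0.36 (adjusted p 0.0171), and the ratio of the means was 2.41. The limma call was lost without db/m replicate 2, the lowest db/m library (0.97, adjusted p 0.0615). With all libraries of that age, an exact permutation test of Cxcl10 alone gave p = 0.000646, unadjusted. Exons of Cxcl10 overlap those of Art3 on the other strand, and Art3 changed by 0.17 at 35 weeks (adjusted p 0.665) and 0.08 at 26 weeks (adjusted p 0.827).

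Cxcl16 (ENSMUSG00000018920, chromosome 11, 70453983 to 70459984) was high in every 35-week db/db Unx library. The values were 75.9, 46.1, 120, 91.4 and 81.5, against a lowest of 29.5, a median of 32.1 and a highest of 38.1 in db/m. The groups did not overlap, with replicate 2 again nearest to the db/m range and replicate 3 farthest from it. The log2 fold change was 1.26 ± 0.16 (adjusted p 4.74e-07), and 0.84 (adjusted p 0.000804) without replicates 3, 5 and 6. Exons of Cxcl16 overlap those of Zmynd15 on the other strand, whose 35-week change of 0.56 was not called (adjusted p 0.121). Whether the authors' counting used strand is not given in the sources used here.

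At 26 weeks Cxcl16 averaged 40.5 ± 5.70 in db/db Unx and 33.2 ± 8.81 in db/m (SD, n = 12 and 5). The db/m libraries had 28.1, 28.7, 31.2, 48.8 and 29.2, so that replicate 4 alone lay above the highest db/db Unx library of 47.4. The log2 difference of 0.30 ± 0.14 was not called (adjusted p 0.112). Without db/m replicate 4 it was 0.44 and called (adjusted p 0.0150).

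Cxcl12 (ENSMUSG00000061353, chromosome 6, 117168535 to 117181367) was called in none of the comparisons. Its mean was 66.2 ± 8.24 in db/db Unx at 35 weeks, 60.7 ± 13.5 in db/m at 35 weeks, 59.5 ± 4.36 in 26-week db/db Unx and 63.7 ± 13.1 in 26-week db/m (SD, n = 5, 6, 12 and 5). The differences of 0.14 ± 0.12 at 35 weeks (adjusted p 0.402) and -0.08 ± 0.10 at 26 weeks (adjusted p 0.612) were within the spread of the libraries.

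Ccl28 (ENSMUSG00000074715, chromosome 13, 119623819 to 119654359) was the gene of the set with the strongest decrease. At 35 weeks the db/db Unx libraries had 1.41, 3.97, 3.56, 2.59 and 2.55, against a lowest of 12.4, a median of 22.6 and a highest of 28.9 in db/m. At 26 weeks the db/db Unx libraries had a lowest of 0, a median of 1.17 and a highest of 2.03, against 38.1, 33.8, 15.3, 27.0 and 24.1 in db/m. The groups were far apart at both ages, and db/db Unx replicate 1 of 26 weeks is listed at 0. The log2 fold change was -2.56 ± 0.25 at 35 weeks (adjusted p 2.06e-10) and -3.70 ± 0.22 at 26 weeks (adjusted p 7.07e-16). In ratios, the db/db Unx mean was 0.129 of the db/m mean at 35 weeks and 0.0432 of it at 26 weeks.

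By absolute fold change at 26 weeks, Ccl28 ranked 18 among the 13495 genes. In the same samples the summed proximal tubule markers were lower in all db/db Unx libraries than in all db/m libraries of their age, and 8 injured tubule markers summed to 4631 to 8623 in db/db Unx and 873 to 1064 in db/m at 35 weeks, and to 2598 to 5260 in db/db Unx and 849 to 1035 in db/m at 26 weeks. Of the 7 proximal tubule markers, 4 were called by limma at 35 weeks and 5 at 26 weeks, all as lower, against 16.4% and 17.7% of all genes. The rest were not called, among them Slc5a2 (-0.10 at 35 weeks and 0.19 at 26 weeks), so the sum does not stand for every marker. The part of proximal or injured tubule cells in the change of Ccl28 and of Il34 was not tested. Ccl28 changed by -2.65 at 35 weeks when replicates 3, 5 and 6 were left out.

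**Figure D2:**
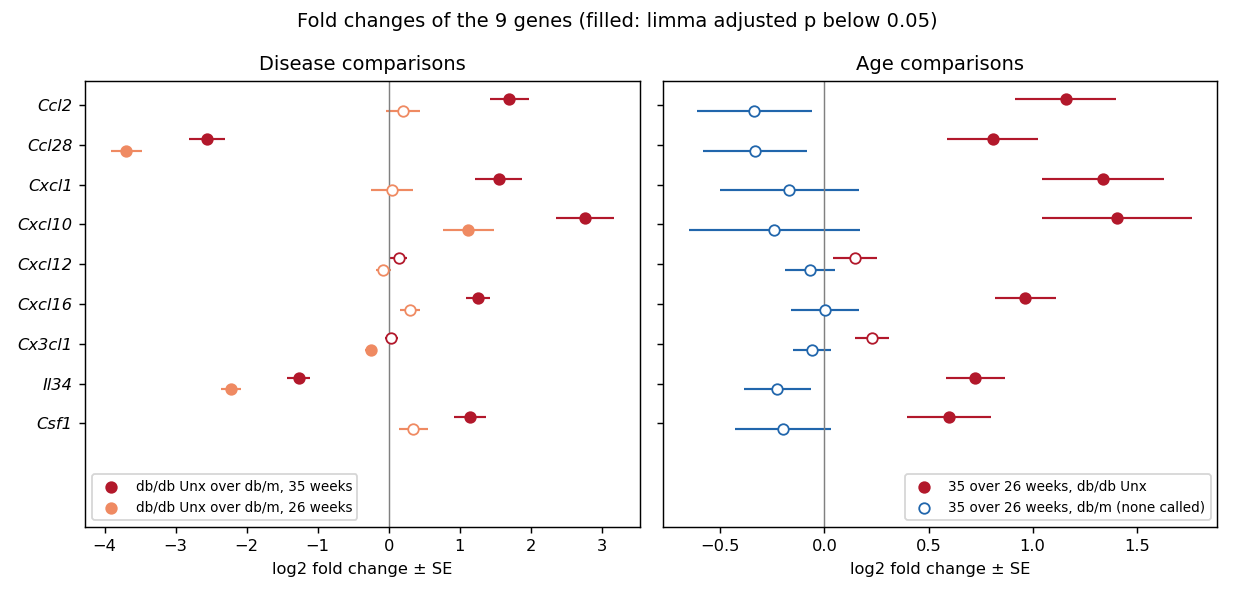
Log2 fold changes ± SE of the 9 genes (rows) from limma, with the disease comparisons (db/db Unx over db/m) at 35 and 26 weeks on the left and the age comparisons (35 over 26 weeks) in db/db Unx and db/m on the right, on horizontal axes of different scale, with filled points for adjusted p below 0.05. Ccl28 and Il34 lie left of 0 at both ages, 5 genes lie right of it with filled points at 35 weeks, and no point of the db/m age comparison is filled.

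Il34 (ENSMUSG00000031750, chromosome 8, 110741829 to 110805924), a ligand of Csf1r, was lower in db/db Unx kidneys at both ages. At 35 weeks the db/db Unx libraries had 13.5, 11.7, 14.0, 14.6 and 17.8, against a lowest of 30.7, a median of 36.4 and a highest of 40.6 in db/m. At 26 weeks the db/db Unx libraries had a lowest of 4.68, a median of 7.56 and a highest of 13.8, against 42.5, 39.6, 36.9, 47.7 and 42.5 in db/m. The groups did not overlap at either age, and the spread within each group was small beside the gap. Il34 changed by -1.27 ± 0.16 at 35 weeks (adjusted p 6.31e-08) and by -2.22 ± 0.14 at 26 weeks (adjusted p 3.34e-15). Il34 overlaps the antisense genes Gm15894 and Gm15895, which are not among the genes given by the authors. The decrease at 35 weeks was also seen without db/db Unx replicates 3, 5 and 6 (-1.43, adjusted p 7.34e-06).

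Csf1 (ENSMUSG00000014599, chromosome 3, 107741048 to 107760469), the other ligand of Csf1r, moved the opposite way at 35 weeks. The db/db Unx libraries had 5.10, 8.10, 23.2, 10.2 and 11.3, against a lowest of 3.07, a median of 4.08 and a highest of 5.33 in db/m. In 4 of 5 db/db Unx libraries the value was above all db/m libraries, and replicate 1 lay within their range. The log2 fold change was 1.15 ± 0.23 (adjusted p 0.000141). At 26 weeks the means were 6.67 ± 1.90 in db/db Unx and 4.95 ± 1.27 in db/m (SD, n = 12 and 5), and the log2 difference of 0.35 ± 0.20 was not called (adjusted p 0.184).

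The balance of the 2 Csf1r ligands was compared as the ratio of Csf1 to Il34 within a library. The mean ratio of normalized values was 0.812 ± 0.490 (range 0.378 to 1.66) in db/db Unx at 35 weeks, 0.119 ± 0.0339 (0.0881 to 0.170) in db/m at 35 weeks, 0.882 ± 0.416 (0.302 to 1.68) in 26-week db/db Unx and 0.121 ± 0.0418 (0.0879 to 0.191) in 26-week db/m (SD, n = 5, 6, 12 and 5). The ratio was higher in every db/db Unx library than in every db/m library. The mean of log2((Csf1 + 1)/(Il34 + 1)) was -0.43 in db/db Unx and -2.84 in db/m at 35 weeks, a difference of 2.41, and -0.30 in db/db Unx and -2.87 in db/m at 26 weeks, a difference of 2.57. An exact two-sided permutation test gave p = 0.00216 at 35 weeks and p = 0.000162 at 26 weeks, the smallest values that 462 and 6188 arrangements can give. Il34 alone did not overlap between the groups and gave the same permutation p-values, so the test of the ratio cannot show a part of Csf1. For Csf1 alone the permutation p was 0.00433 at 35 weeks and 0.0656 at 26 weeks. Without replicates 3, 5 and 6 the 35-week difference was 1.98 (exact permutation p 0.0357). With 2 db/db Unx libraries left, that p is again the smallest possible and shows no more than that the groups did not overlap.

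**Figure D3:**
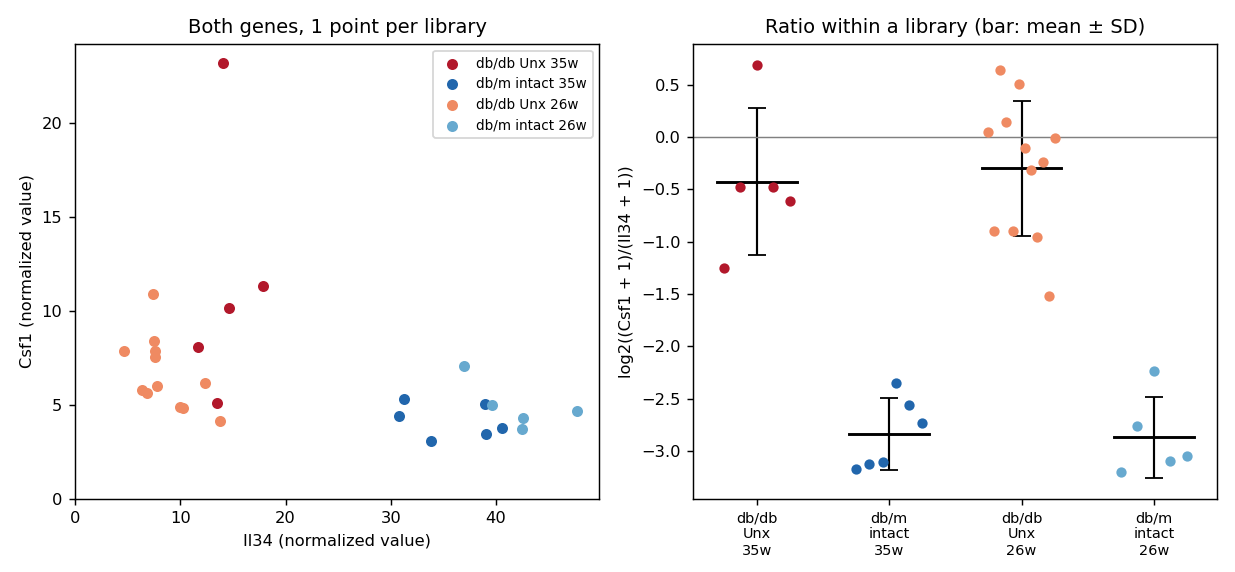
The left panel plots the normalized value of Csf1 (vertical) against that of Il34 (horizontal) for each of the 28 libraries, and the right panel plots log2((Csf1 + 1)/(Il34 + 1)) per library with the mean ± SD of each group. The db/m libraries of both ages lie at Il34 values of 30.7 or more and log2 ratios near -2.84 and -2.87, and the db/db Unx libraries lie at Il34 values of 17.8 or less with means of -0.43 and -0.30.

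With age, 7 of the 9 genes were higher at 35 than at 26 weeks in db/db Unx kidneys (Cxcl12 and Cx3cl1 were not called) and 0 were lower, where 11.3% of all genes were called, 5.16% as higher and 6.14% as lower. The median log2 fold change was 0.81 over the 9 genes and 0.00473 over all genes. This comparison uses the same 5 db/db Unx libraries of 35 weeks as the 35-week disease comparison. The age changes were 1.40 ± 0.36 for Cxcl10 (adjusted p 0.0130), 1.34 ± 0.29 for Cxcl1 (adjusted p 0.00328), 1.16 ± 0.24 for Ccl2 (adjusted p 0.00203) and 0.97 ± 0.14 for Cxcl16 (adjusted p 0.000130). Genes lower in disease were higher at the later age as well, Ccl28 by 0.81 ± 0.22 (adjusted p 0.0137) and Il34 by 0.72 ± 0.14 (adjusted p 0.00105). Csf1 was higher by 0.60 ± 0.20 (adjusted p 0.0481), just inside the threshold, and Cx3cl1 by 0.23 ± 0.08 (adjusted p 0.0579), just outside it.

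Without replicates 3, 5 and 6 of db/db Unx at 35 weeks, 0 of the 9 genes were called by limma (4 at an unadjusted p below 0.05) and 8 of all genes, with age changes of 0.64 for Cxcl10, 0.43 for Ccl2, 0.55 for Cxcl16, 0.26 for Cxcl1 and -0.00331 for Csf1. Ccl28 (0.71, adjusted p 0.639) and Il34 (0.56, adjusted p 0.485) lost the call with age changes nearer to those of all libraries. Without replicate 3 alone the call of Ccl28 was lost (adjusted p 0.0513), Cxcl10 changed by 0.81 and Csf1 by 0.32 (adjusted p 0.309). The Csf1 call was lost in 11 of 17 fits that left out 1 library, and Cx3cl1 was called without db/db Unx replicate 2 of 35 weeks (adjusted p 0.0103) or replicate 9 of 26 weeks (adjusted p 0.0278). The count over all genes was 633 without replicate 5 and 759 without replicate 6, against 1526 with all libraries.

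In db/m kidneys none of the 9 genes was called between 35 and 26 weeks by limma, also none at an unadjusted p below 0.05, where 7.4% of all genes were called, 2.73% as higher and 4.68% as lower. The log2 differences lay between -0.34 (Ccl2, SE 0.28, adjusted p 0.532) and 0.00378 (Cxcl16, SE 0.16, adjusted p 0.993). An exact permutation test of Ccl2 alone gave p = 0.0476, unadjusted. The labels give no batch, so age and any batch tied to it cannot be told apart.

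The interaction, which sets the disease effect at 35 weeks against that at 26 weeks, was called for 3 of the 9 genes, all of them higher at 35 weeks, where 0.548% of all genes were called, 0.393% as higher and 0.156% as lower. They were Ccl2 (1.50 ± 0.37, adjusted p 0.0475), Cxcl16 (0.96 ± 0.22, adjusted p 0.0401) and Il34 (0.95 ± 0.21, adjusted p 0.0334). For Il34 the positive value means a smaller decrease at 35 than at 26 weeks. The interactions of Ccl28 (1.14 ± 0.33, adjusted p 0.0929), Cxcl1 (1.50 ± 0.44, adjusted p 0.0991), Cxcl10 (1.64 ± 0.55, adjusted p 0.170) and Csf1 (0.80 ± 0.31, adjusted p 0.238) were not called. The calls lay near the threshold: leaving out 1 library lost that of Ccl2 in 22 of 28 fits, that of Cxcl16 in 17 and that of Il34 in 9, and without replicates 3, 5 and 6 none of the 9 was called by limma (5 at an unadjusted p below 0.05, with 0.77 for Ccl2, 0.54 for Cxcl16 and 0.78 for Il34).

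The 5 db/db Unx libraries of 35 weeks differed among themselves along several of these genes at once. Replicate 3 held the highest value for 5 of the 9 genes and replicate 6 for 3, while replicate 2 held the lowest for 5 and replicate 1 for 3. The 12 macrophage markers summed to 247, 152, 591, 521 and 504 in replicates 1, 2, 3, 5 and 6, so the 2 libraries with low sums were also those that held the most of the lowest chemokine values. The 12 interferon response genes summed to 5545 in replicate 3, against 136 to 527 in the other 4, and replicate 3 was the library with 212 for Cxcl10. Neutrophil markers summed to 27.3 in replicate 3 and 1.71 to 5.19 in the other 4, whereas Cxcl1 was highest in replicate 6. The part of these cells and genes in the differences between libraries was not tested.

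**Figure D4:**
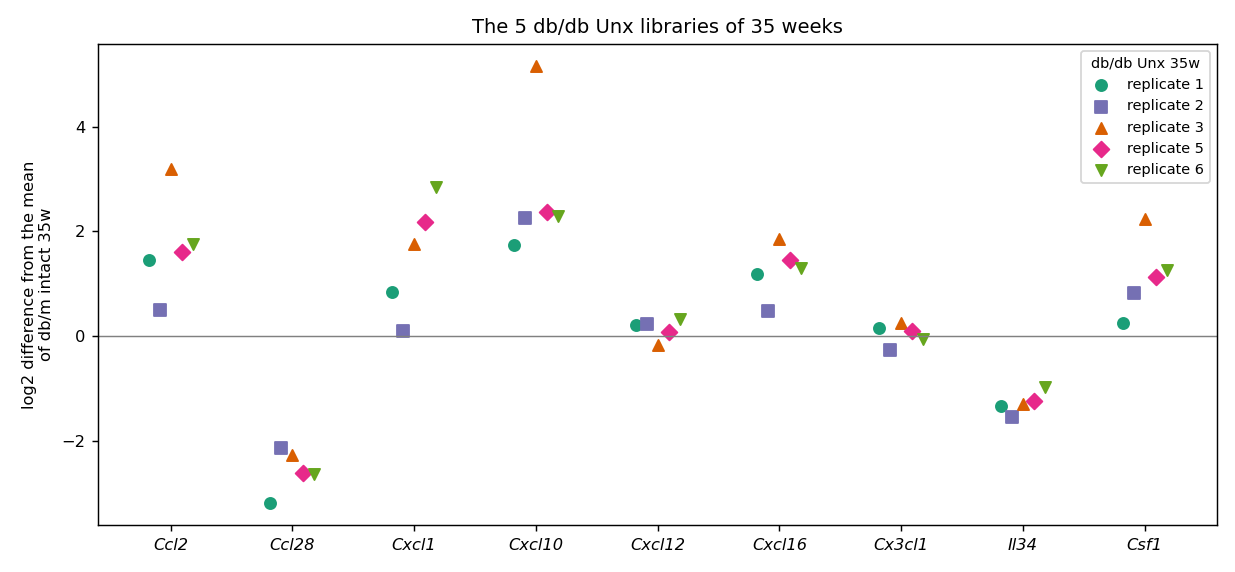
For each of the 9 genes (horizontal axis), the 5 db/db Unx libraries of 35 weeks are plotted as the difference of log2(normalized value + 1) from the mean of db/m intact 35w, with 1 symbol per replicate. Replicate 3 is the highest point for Ccl2, Cxcl10, Cxcl16, Cx3cl1 and Csf1, and all 5 points of Ccl28 and Il34 lie below 0.

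Of 22 chemokine receptors, 14 are in the table and 9 were tested, and 0 were called in any of the 5 limma comparisons (at an unadjusted p below 0.05, 0 at 35 weeks, 2 at 26 weeks, 1 with age in each genotype and 0 for the interaction). Of all genes, 32.3% were called in the disease comparison at 35 weeks and 34.9% at 26 weeks. Ccr2, the receptor of Ccl2, averaged 3.63 ± 1.88 in db/db Unx and 3.36 ± 1.29 in db/m at 35 weeks (adjusted p 0.970). Cx3cr1 averaged 8.43 ± 1.99 in db/db Unx and 6.77 ± 2.38 in db/m (adjusted p 0.365). Cxcr3, the receptor of Cxcl10, averaged 0.953 ± 0.704 in db/db Unx and 0.931 ± 0.418 in db/m (adjusted p 0.947), levels at which the depth limits any comparison. Cxcr6, the receptor of Cxcl16, averaged 2.00 ± 1.74 in db/db Unx and 2.28 ± 0.665 in db/m (adjusted p 0.534), and Ackr3, a scavenging receptor of Cxcl12, 24.8 ± 6.85 in db/db Unx and 32.7 ± 17.0 in db/m (adjusted p 0.421). Cxcr4 is in the table under the filter on low values, and Ccr10, Ccr3 and Cxcr2 are not in the table.

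Of 7 tested genes of the colony-stimulating factor system, 1 was higher and 0 lower at 35 weeks, and 1 was higher and 1 lower at 26 weeks. These counts do not exceed the shares over all genes, 32.3% called at 35 weeks and 34.9% at 26 weeks. Csf1r, the shared receptor, averaged 29.2 ± 6.27 in db/db Unx at 35 weeks, 32.1 ± 3.01 in db/m at 35 weeks, 19.7 ± 3.60 in 26-week db/db Unx and 30.2 ± 6.68 in 26-week db/m. It was lower at 26 weeks (-0.58 ± 0.13, adjusted p 0.00036) and not called at 35 weeks (-0.16 ± 0.14, adjusted p 0.447). Sdc1, syndecan-1, a binding partner of Il34, was higher at both ages, by 0.70 ± 0.15 at 35 weeks (adjusted p 0.00023) and 0.79 ± 0.13 at 26 weeks (adjusted p 4.47e-06).

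Of 29 other chemokine ligands, 22 are in the table and 11 were tested. At 35 weeks 2 were higher and 0 lower, and at 26 weeks 1 was higher and 3 were lower, where 32.3% and 34.9% of all genes were called. Ccl6, a chemokine of myeloid cells, was higher at both ages, with 11.9 ± 3.81 in db/db Unx and 2.72 ± 1.07 in db/m at 35 weeks (1.78 ± 0.21, adjusted p 1.09e-08) and 8.07 ± 1.68 in db/db Unx and 3.77 ± 1.33 in db/m at 26 weeks (0.95 ± 0.18, adjusted p 6.82e-05). Ccl8 was higher at 35 weeks (0.80 ± 0.27, adjusted p 0.0198) and not called at 26 weeks (0.01 ± 0.24, adjusted p 0.983). Cxcl14, Cxcl9 and Ccl19 were lower at 26 weeks, with log2 changes of -0.74 ± 0.17, -0.997 ± 0.28 and -0.82 ± 0.24. Ccl6 was the one ligand called at 35 weeks both with and without replicates 3, 5 and 6. In the fit without them Ccl8 changed by -0.07 (adjusted p 0.921), so its direction turned, and Ccl19 was called as lower (-0.91, adjusted p 0.0474).

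Of 7 tested proteases and inhibitors that act on chemokines, 1 was higher and 1 lower at 35 weeks and 2 were higher and 1 lower at 26 weeks. The shares called over all genes were 32.3% at 35 weeks and 34.9% at 26 weeks. Timp3, an inhibitor of the sheddases that release membrane-bound ligands, averaged 1245 ± 121 in db/db Unx and 2506 ± 180 in db/m at 35 weeks, and changed by -1.01 ± 0.07 at 35 weeks (adjusted p 1.49e-14) and by -0.85 ± 0.06 at 26 weeks (adjusted p 2.77e-14). Adam10, a sheddase of Cxcl16 and Cx3cl1, was not called at 35 weeks (0.01 ± 0.12, adjusted p 0.977) or 26 weeks (-0.15 ± 0.10, adjusted p 0.282). Mmp14, a membrane-bound matrix metalloproteinase, was higher by 0.77 ± 0.21 at 35 weeks (adjusted p 0.0035) and by 0.57 ± 0.18 at 26 weeks (adjusted p 0.0122). Without replicates 3, 5 and 6 its 35-week change was 0.35 and no longer called (adjusted p 0.424), while Timp3 remained called.

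Of 13 tested genes of the NF-kB pathway and its targets, 9 were higher and 0 lower at 35 weeks, and 3 were higher and 0 lower at 26 weeks. Over all genes 15.9% were called as higher at 35 weeks and 17.2% at 26 weeks. The median log2 fold change of the list was 0.76 at 35 weeks, against 0.01 over all genes. The list was chosen with earlier results of these data known, so its counts and median are a description. Nfkbia, the inhibitor that NF-kB itself induces, averaged 93.4 ± 20.6 in db/db Unx and 42.1 ± 4.80 in db/m at 35 weeks (1.11 ± 0.17, adjusted p 1.05e-05), against 44.7 ± 12.1 in db/db Unx and 42.4 ± 5.26 in db/m at 26 weeks (0.04 ± 0.15, adjusted p 0.871). Its interaction was called (1.07 ± 0.23, adjusted p 0.0334), but not without replicates 3, 5 and 6 (0.71, adjusted p 0.379). Vcam1 and Icam1, adhesion molecules for leukocytes, were higher at 35 weeks by 2.01 ± 0.31 and 1.21 ± 0.20. With those replicates left out, 3 of the 9 remained called, namely Nfkbia, Icam1 and Vcam1.

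Of 12 interferon response genes, 7 were higher and 0 lower at 35 weeks, and 0 were higher and 2 lower at 26 weeks. Over all genes 15.9% were called as higher at 35 weeks, and 17.2% as higher and 17.7% as lower at 26 weeks. Isg15, a ubiquitin-like interferon-induced protein, averaged 8.98 ± 8.09 in db/db Unx and 1.80 ± 0.693 in db/m at 35 weeks (1.61 ± 0.28, adjusted p 2.48e-05). Irf7, a transcription factor of interferon responses, was higher at 35 weeks (1.13 ± 0.28, adjusted p 0.00206) and lower at 26 weeks (-0.63 ± 0.25, adjusted p 0.0459), and its interaction was called (1.76 ± 0.37, adjusted p 0.0273). Without replicates 3, 5 and 6 the call of Irf7 was lost at 35 weeks (0.39, adjusted p 0.323) and for the interaction (1.024, adjusted p 0.222). Of the 7 genes higher at 35 weeks, 3 remained called, namely Isg15, Ifit1 and Ifit3. Cxcl10, often induced together with these genes, was called as higher at 26 weeks, a limma call lost without db/m replicate 2 (adjusted p 0.0615). At that age the 12 genes went in both directions. None was called as higher and 2 were called as lower, while Isg15, Ifit1 and Ifit3 changed by 0.50 ± 0.25, 0.54 ± 0.35 and 0.46 ± 0.37 (SE) without a call. A link of Cxcl10 to these genes was not tested.

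Of 12 macrophage markers, 6 were higher and 0 lower at 35 weeks, and 1 was higher and 2 lower at 26 weeks. Over all genes 15.9% were called as higher at 35 weeks, and 17.2% as higher and 17.7% as lower at 26 weeks. Their summed values were 152 to 591 in db/db Unx at 35 weeks, 136 to 220 in db/m at 35 weeks, 110 to 221 in 26-week db/db Unx and 153 to 233 in 26-week db/m. Cd14, a receptor of monocytes and macrophages, was higher by 1.41 ± 0.27 at 35 weeks (adjusted p 9.36e-05) and C1qa, a complement component made by macrophages, by 0.96 ± 0.19 (adjusted p 0.00017). At 26 weeks C1qa was 1 of the 2 called as lower (-0.46 ± 0.17, adjusted p 0.0332). Markers beyond the 6 were not called at 35 weeks, among them Csf1r (-0.16 ± 0.14, adjusted p 0.447), so the sum does not stand for every marker. Without replicates 3, 5 and 6, 0 of the 12 were called by limma at 35 weeks (2 at an unadjusted p below 0.05). Those replicates were left out after seeing the data and held the highest macrophage sums of their group. This setting therefore cannot tell changes of the chemokines from changes of the macrophage markers. Of 3 tested T and NK cell markers 0 were called by limma at either age (0 at 35 and 1 at 26 weeks at an unadjusted p below 0.05), with sums of 1.31 to 9.55 in db/db Unx and 2.91 to 7.87 in db/m at 35 weeks. The counts for 3 tested neutrophil markers were the same.

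Of the other cell types, 6 endothelial markers showed 0 higher and 2 lower at 35 weeks and 0 higher and 3 lower at 26 weeks, with sums of 145 to 179 in db/db Unx and 189 to 221 in db/m at 35 weeks. Of 4 B and plasma cell markers 2 were lower at 35 weeks and 4 at 26 weeks. Of 5 fibroblast markers 3 were higher at each age, and 1 of them (Col1a1) remained called at 35 weeks without replicates 3, 5 and 6. Of 8 injured tubule markers 8 were higher at 35 weeks and 7 at 26 weeks. Beside all these counts, 15.9% of all genes were called as higher and 16.4% as lower at 35 weeks. At 26 weeks the shares were 17.2% and 17.7%. Vcam1 is in this list as well as in the NF-kB list. All 8 injured tubule markers remained called at 35 weeks in that setting. The part of any of these cell types in the changes of the 9 genes was not tested.

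Compared between genes as mean normalized value per kilobase of exon, the order of the levels differed between the groups. In db/db Unx at 35 weeks Cxcl10 (28.2), Cxcl16 (27.5) and Cx3cl1 (20.9) led, followed by Cxcl12 (8.10), Il34 (7.31), Ccl2 (5.20), Cxcl1 (3.30), Csf1 (2.19) and Ccl28 (0.582). In db/m at 35 weeks Cx3cl1 (20.3) and Il34 (18.2) led, followed by Cxcl16 (10.8), Cxcl12 (7.43), Ccl28 (4.49), Cxcl10 (2.33), Csf1 (0.790), Ccl2 (0.686) and Cxcl1 (0.548). The first place of Cxcl10 in db/db Unx came from replicate 3: without it the means were 24.4 for Cxcl16, 20.1 for Cx3cl1 and 11.7 for Cxcl10. Il34 thus stood below Cxcl12 in db/db Unx and next to the top in db/m, and Ccl28 stood last in db/db Unx and above Cxcl10, Csf1, Ccl2 and Cxcl1 in db/m.

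At 26 weeks the order in db/db Unx was Cx3cl1 (17.7), Cxcl16 (13.4), Cxcl12 (7.27), Cxcl10 (6.70), Il34 (4.34), Ccl2 (1.43), Csf1 (1.26), Cxcl1 (0.781) and Ccl28 (0.247), and in db/m it was Il34 (21.4), Cx3cl1 (21.1), Cxcl16 (11.0), Cxcl12 (7.79), Ccl28 (5.71), Cxcl10 (2.78), Ccl2 (1.08), Csf1 (0.938) and Cxcl1 (0.665). Neighbours were separated in every library in few places. In db/db Unx the separation held for Cx3cl1 over Cxcl12 and Csf1 over Ccl28 at 35 weeks, and for Cxcl16 over Cxcl12 and Il34 over Ccl2 at 26 weeks. In db/m it held for Il34 over Cxcl16, Cxcl12 over Ccl28 and Cxcl10 over Csf1 at 35 weeks, and for Cx3cl1 over Cxcl16 and Cxcl10 over Ccl2 at 26 weeks. All other neighbours overlapped.

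Within groups, the genes most like each of the 9 were found by the correlation of log2 values after subtraction of the group means, over 28 libraries that share 4 groups and among 12918 genes. Cxcl10 was most like Gbp4 (r 0.90) and Apol9a (r 0.83), both interferon-induced genes, and r over the libraries outside db/db Unx 35w was 0.76 and 0.64. Cxcl16 was most like C1qb (r 0.85) and Cd74 (r 0.84), genes of macrophages and antigen presentation. Ccl2 was most like Iigp1 (r 0.80) and Spi1 (r 0.80), but r was 0.36 and 0.37 without the db/db Unx libraries of 35 weeks, so these rest on that group.

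Cxcl1 was most like Rab7b (r 0.82) and Il1f6 (r 0.78), Csf1 like Adar (r 0.77) and Pik3r1 (r 0.76), and Cx3cl1 like Bcl3 (r 0.77) and Suv39h2 (r 0.73). Il34 was most like Col5a3 (r 0.67) and Ifngr2 (r 0.66), Ccl28 like Art3 (r 0.75) and Polr3f (r 0.72), and Cxcl12 like Nop56 (r 0.76) and Akirin1 (r 0.69). These are descriptions over libraries of 1 tissue, with no test.

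Whether the 9 genes vary together within 1 group was tested in the 12 db/db Unx libraries of 26 weeks. Of 36 pairs, 0 reached an adjusted p below 0.05 by Pearson or Spearman correlation with permutation tests (4 and 2 at an unadjusted p below 0.05), and r ranged between -0.62 and 0.73. The highest was Cxcl1 with Cxcl16 (r 0.73, rho 0.65, permutation p 0.00604, adjusted p 0.217), and its r was 0.30 without the 2 libraries farthest from the median of Cxcl1.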

How the data were processed

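RNA-seq libraries of 28 mouse kidneys were made from TRIzol and RNeasy extracts with Nextera XT, per the labels' protocols. Per the submitters' processing notes the tools and builds named are DRAGEN and GRCm38/mm10; for version, annotation, scaling and gene filter: not given in the sources used here. Deposited by the authors was 1 table of normalized signal values per gene. Most low values (88.5% to 91.7% of those under 20 steps) lay within 0.1 of a whole multiple of 1 step per library, from which reads were estimated; the rest did not, and no count model was run. Intervals from depth are not given.

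Gene IDs were matched to symbols of GENCODE M21 (14834 of 14845). Values were tested as log2(value + 1) with limma 3.58.1 in R 4.3.3 (trend and robust options, 1 mean per group, all 28 libraries), on genes that reached 1 in 5 or more libraries, with Benjamini-Hochberg adjustment over 13495 genes and two-sided p-values. The code was tested on simulated data. Exact permutation tests and correlations were run in Python 3.11.15 with scipy 1.17.1. Promoter motifs were searched on both strands of RefSeq windows.

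The 9 members and all gene lists were chosen with earlier results of these data known. All 9 members are named. Of each other list the text names at most 6 tested genes, ranked by the lower adjusted p of both disease comparisons, and of the likeness search the 2 genes with the highest r. Receptors of the members, genes that overlap a member and list genes called in a named setting are given in addition, chosen for that reason. The alternatives were other pseudocounts, filters, scalings and limma options, 2-group fits, a replicate block, leaving out each library, and leaving out 3 libraries that stand apart.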

Additional observations from a re-analysis of the deposited data

Results flagged for a closer look

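Ccl2 in db/db Unx replicate 3 of 35 weeks had a normalized value of 15.1, where the next highest of the 5 libraries had 4.92. Cxcl10 in the same library had 212, where the next highest had 30.1. Cxcl16 in db/m replicate 4 of 26 weeks had 48.8, where the next highest of the 5 had 31.2. Each lay farther from its nearest neighbour, relative to the range of its group, than Dixon's critical value allows. The gaps were taken on the normalized values and not on their log2. Chance gives such a gap in about 1 in 20 groups if the values follow a normal distribution, which was not tested, and 3 of 30 groups tested had one. The cause was not tested.

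The disease comparison differed between 35 and 26 weeks, by limma's interaction term, for Ccl2 (1.50 ± 0.37, adjusted p 0.0475), Cxcl16 (0.96 ± 0.22, adjusted p 0.0401) and Il34 (0.95 ± 0.21, adjusted p 0.0334). Without db/db Unx replicates 3, 5 and 6 of 35 weeks the values were 0.77, 0.54 and 0.78, and none passed the threshold.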

How the results depend on the processing

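Of 404 single-gene values under alternatives other than leaving out 1 library, 366 kept their direction and side of the threshold, 26 lost the call, 5 gained it and 7 reversed; of 756 that left out 1 library the numbers were 677, 62, 5 and 12. Reversed were Cxcl1 at 26 weeks (-0.0315 with a pseudocount of 0.25, -0.0362 with quantile normalization, -0.15 with the replicate block), Cxcl16 with age in db/m (-0.00222 with median-ratio rescaling, -0.0238 with quantile normalization) and, without the 3 db/db Unx libraries of 35 weeks (chosen after seeing the data), Cx3cl1 at 35 weeks (-0.0531) and Csf1 with age in db/db Unx (-0.00331). The median of all genes moved by less than 0.1 under either rescaling. Without those 3 libraries the genes called among the 9 were 0 for age in db/db Unx and 0 for the interaction, and among all genes 2407 at 35 weeks (1132 higher, 1275 lower), 8 for age in db/db Unx and 0 for the interaction. With neither the trend nor the robust option, the interaction was called for 0 of the 9 and 41 of all genes.

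Replicate numbers did not pair the libraries: the labels give no pairing, and 0 of 5 pairs in each comparison had a correlation of deviations over 0.1. With the replicate block, the interaction was called for 1 of the 9 and 29 of all genes, and age in db/db Unx for 483 of all genes. The Csf1 to Il34 difference was instead taken within 5 pairs of the same replicate number at each age, which left out all other libraries. It was 2.51 at 35 and 2.67 at 26 weeks (exact permutation p 0.0625 each by flipping the signs of the pairs, the smallest possible). Cxcl10 lost its call under the block at 26 weeks (adjusted p 0.111) and with age in db/db Unx (adjusted p 0.126).

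Leaving out 1 library, the genes called among the 9 numbered 7 to 7 at 35 weeks, 3 to 4 at 26 weeks, 5 to 8 with age in db/db Unx, 0 to 0 with age in db/m and 0 to 4 for the interaction; among all genes 3751 to 4293, 4178 to 4758, 633 to 1748, 578 to 1140 (578 without db/m replicate 5 of 26 weeks) and 7 to 249 (7 without db/db Unx replicate 5 and 249 without replicate 2 of 35 weeks). Signs turned within the ranges of Cxcl1 (-0.0397 to 0.15) and Cxcl12 at 26 weeks (-0.20 to 0.00801), Cxcl12 (-0.19 to 0.0147), Cxcl16 (-0.0467 to 0.15) and Cx3cl1 (-0.10 to 0.00273) with age in db/m, and Cx3cl1 at 35 weeks (-0.0154 to 0.11). The Csf1 to Il34 difference ranged over 2.13 to 2.62 at 35 and 2.48 to 2.72 at 26 weeks. The stricter filter left out Ccl2 and Cxcl1. The causes were not tested. Depth limits the comparisons of Ccl2, Cxcl1 and, in db/db Unx, Ccl28, which rest on few reads.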
